A study of Mus musculus with 6 samples.

Results

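The interferon-induced genes described here are 38 listed genes whose transcription rises when a cell senses interferon or viral nucleic acid, chosen by symbol from the gene list of the count matrices. Of these, 37 were analysed among 31053 genes, and Mx2 was not analysed here. They were followed across cell classes of the adult mouse brain surface and the dura by single-cell RNA sequencing (scRNA-seq, 10x Genomics 3' libraries). Of the 6 libraries, 4 were cortical surface-associated (brain), holding the leptomeninges and the cells attached to the top of the cortex, and 2 were bone-associated (dura/skull), holding the tissue lifted from the inside of the skull. All were from untreated adult C57BL6 wild-type mice, several animals of both sexes pooled per library, so that n counts libraries and not mice. Mice were not perfused, and blood cells could therefore be in either preparation. Viable cells were sorted as DRAQ5-positive and propidium iodide-negative before capture. No sample received interferon or virus, and the levels below are those found in healthy tissue after enzymatic dissociation.

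After filtering, 8680 cells remained, between 739 and 2452 per library, with a median of 5172 to 9521 unique molecular identifiers (UMIs, one per captured RNA molecule) per cell once hemoglobin transcripts were left out. Cortical surface libraries 3 and 4 stood apart, with hemoglobin taking 84.6% and 71.9% of all UMIs against at most 0.520% in the other 4, so hemoglobin genes were removed from all totals and the main results were also computed without these libraries. Pairs of libraries shared at most 2 barcodes among the kept cells. Classes were named from marker genes after clustering that left out the listed genes and further lists of interferon pathway genes. Interferon-induced genes outside these lists were not left out. All 11 endothelial markers were detected in the endothelial class of each library, and their sum was 13394 to 18292 counts per 1000000 UMIs of a class in a library (CPM), the scale used for all levels here. The class was put together unevenly: an arterial cluster of 78 cells was part of it in the cortical surface data, while its bone-associated counterpart of 147 cells was led by arterial genes and stayed unnamed. Border macrophage markers were lower in the bone-associated libraries, at 9253 and 10098 CPM against 15944 to 19938, and the class held only 16 cells in bone-associated library 1 and 98 in library 2.

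Type I interferons act on the receptor subunits Ifnar1 and Ifnar2, which leads to a complex with Stat2 and Irf9 that binds interferon-stimulated response elements in promoters. Type II interferon (Ifng) acts on its own receptor and on genes with GAS elements. The induced genes include the IFIT proteins, which bind viral RNA, the OAS enzymes, which sense double-stranded RNA, the immunity-related GTPases and guanylate-binding proteins, which act on pathogen vacuoles, and regulators such as Usp18, which removes Isg15 from proteins and dampens receptor signalling. Many cells express a low tonic level of these genes without infection, and endothelial cells and border macrophages stand where blood-borne signals meet the brain.

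To show a sequence that many listed genes hold, promoters were taken from RefSeq (GRCm38.p6, the same build as the mm10 coordinates of the data). They were windows of 300 bases, with 250 before and 50 after each transcription start. Windows were found for 29 of the analysed genes, 33 windows in all. The letters GAAANNGAAA, searched on both strands as the response element, were present in 19 of the 33 windows (57.6%) against 1131 of all 32851 promoter windows (3.44%). The GAS letters TTCNNNGAA, which read the same on both strands, were present in 7 windows (21.2%) against 8.30% of all windows. Among windows of the core genes defined below, 5 of 12 held the response element letters (41.7%), against 14 of 21 outside the core (66.7%). The windows of Ifit2, Irf7, Oasl1, Oasl2, Cmpk2 and Ifi44 held none. A match is a description of letters and not a measured binding site. The 6 genes printed next all held a match. The 200 bases upstream of the start are printed for 6 genes that carry results below, with the response element letters in capitals: Isg15 (chr4:156200819-156201018, minus strand) and Rsad2 (chr12:26456453-26456652, minus strand), each found in most of the strong neutrophils and erythroid cells, Ifit1 (chr19:34640689-34640888, plus strand) with the neighbouring copies Ifit3 (chr19:34583329-34583528, plus strand) and Ifit3b (chr19:34607757-34607956, plus strand), and Bst2 (chr8:71537473-71537672, minus strand), which was high in border macrophages. Each is written 5' to 3' on the strand of its gene.
Isg15: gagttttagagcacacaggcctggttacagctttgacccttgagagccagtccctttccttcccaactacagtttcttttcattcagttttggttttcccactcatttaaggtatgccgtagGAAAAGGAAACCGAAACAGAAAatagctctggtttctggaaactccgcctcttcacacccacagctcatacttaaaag
Rsad2: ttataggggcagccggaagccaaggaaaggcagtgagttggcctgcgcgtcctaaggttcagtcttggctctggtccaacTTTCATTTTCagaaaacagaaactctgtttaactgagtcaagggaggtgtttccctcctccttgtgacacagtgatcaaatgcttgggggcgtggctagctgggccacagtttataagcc
Ifit1: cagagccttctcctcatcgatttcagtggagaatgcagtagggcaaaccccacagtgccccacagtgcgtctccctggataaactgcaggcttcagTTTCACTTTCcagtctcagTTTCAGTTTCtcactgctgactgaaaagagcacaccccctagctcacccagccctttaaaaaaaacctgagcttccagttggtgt
Ifit3: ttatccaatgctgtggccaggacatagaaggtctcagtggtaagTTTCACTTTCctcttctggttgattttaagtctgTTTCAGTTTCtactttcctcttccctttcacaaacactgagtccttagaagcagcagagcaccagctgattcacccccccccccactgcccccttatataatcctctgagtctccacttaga
Ifit3b: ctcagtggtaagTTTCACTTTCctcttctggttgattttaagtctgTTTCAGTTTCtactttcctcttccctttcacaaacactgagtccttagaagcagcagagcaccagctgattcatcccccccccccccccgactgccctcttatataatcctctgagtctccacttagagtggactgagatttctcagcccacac
Bst2: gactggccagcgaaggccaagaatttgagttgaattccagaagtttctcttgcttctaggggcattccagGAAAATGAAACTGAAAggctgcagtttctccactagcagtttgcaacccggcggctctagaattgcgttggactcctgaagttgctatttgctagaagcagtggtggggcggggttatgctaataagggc
Isg15 held 3 overlapping copies, starting 78, 72 and 66 bases before the start site, Bst2 held 2 overlapping copies, and Rsad2 held 1, which starts 120 bases before it. In Ifit3 and Ifit3b the matches stood at 156 and 122 and at 188 and 154 bases before the start, with the same spacing. These neighbours are near-identical copies, and how the reads divide between them is uncertain; they were counted as 1 entry wherever cells were scored.

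To ask how base levels differ between classes, the UMIs of 14 genes were first added per class and library. These 14 core genes (13 entries, Ifit3 and Ifit3b joined) were Ifit1, Ifit2, Ifit3, Ifit3b, Isg15, Irf7, Rsad2, Usp18, Oasl1, Oasl2, Oas2, Mx1, Cmpk2 and Ifi44. Endothelial cells had the steadiest high level, at 1053, 973, 1001 and 888 CPM in cortical surface libraries 1 to 4 and 1104 and 995 in the bone-associated libraries. Microglia, the resident macrophages of brain parenchyma, had 41, 39, 34 and 62, so their highest library lay far below the lowest endothelial one. Vascular smooth muscle cells (VSMCs) had 46 to 60 in the cortical surface libraries and 54 and 132 in the bone-associated libraries, and B cells 22 to 106 over all 6.

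Myeloid cells were more variable. Border macrophages had 352, 768, 191 and 237 in the cortical surface libraries and 622 and 1038 in the bone-associated libraries, and the groups overlapped because of cortical surface library 2. Monocytes had 286 and 641 in cortical surface libraries 3 and 4 and 738 and 1203 in bone-associated cells. Neutrophils had 179 and 204 in cortical surface libraries 3 and 4 and 1421 and 2079 in bone-associated libraries 1 and 2. Cortical surface libraries 1 and 2 had too few monocytes and neutrophils. In both classes preparation therefore cannot be told apart from the high hemoglobin of libraries 3 and 4. Bone-associated mast cells stood at 688 and 851, and pericytes ranged from 111 to 567 on the cortical surface and stood at 726 and 424 in the bone-associated libraries. The highest sums were in erythroid cells of cortical surface libraries 3 and 4, at 3178 and 3062, where hemoglobin had been taken out of the denominator.

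**Figure D1:**
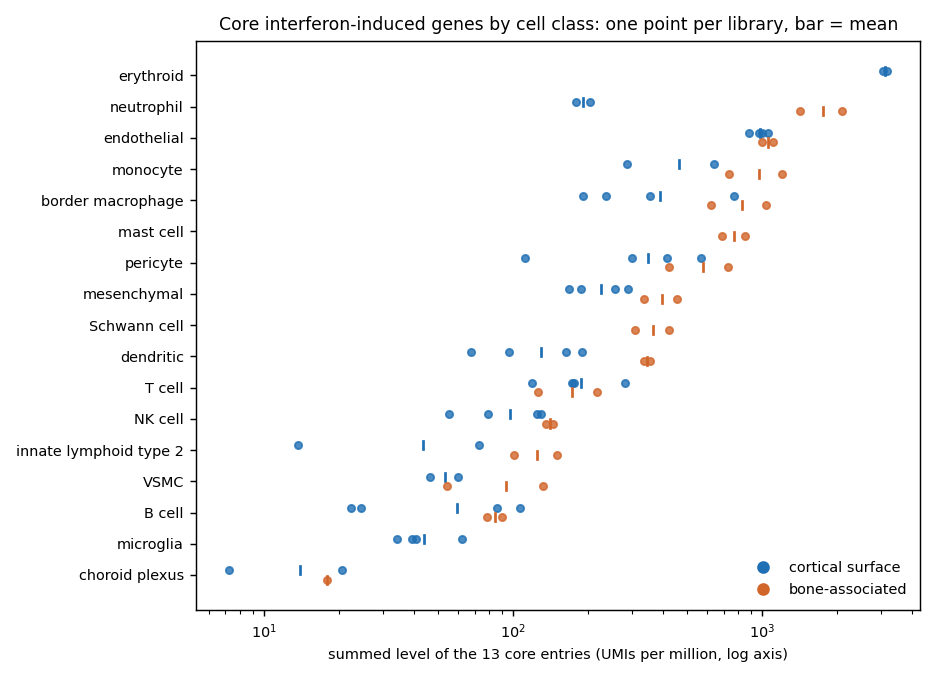
Summed level of the 13 core entries (CPM, hemoglobin left out, log axis) in each cell class, one point per library with at least 10 cells and a bar at the mean, blue for cortical surface and orange for bone-associated. The 6 endothelial points lie close together between 888 and 1104, and microglia lie between 34 and 62. Neutrophils differ widely between the preparations, but their cortical surface points come only from the hemoglobin-rich libraries 3 and 4.

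To test which members were higher in a class, UMIs were summed per class and library and each of 13 classes was set against the mean of the other 12 with edgeR's quasi-likelihood test over 11460 genes, with library as a term. A gene was called when its Benjamini-Hochberg adjusted p was under 0.05 and its log2 fold change at least 1.3. Endothelial cells had 25 of 37 members called higher, where 17.8% of all genes tested were. Border macrophages also had 25 (16.8% of all genes), monocytes 23 (11.8%) and neutrophils 17 (14.3%). Dendritic cells had 11 (15.2%), pericytes 7 (19.7%), T cells 7 (9.86%), mesenchymal cells 5 (22.3%), B cells 3 (8.5%), NK cells 2 (8.12%), type 2 innate lymphoid cells 1 (9.03%), microglia 1 (14.2%) and VSMCs 1 (18.8%). Across members, the median log2 difference was 1.81 in endothelial cells (0.14 over all genes), 1.59 in border macrophages (0.12), 1.84 in monocytes (-0.09) and 1.26 in neutrophils (-0.77). It was -1.46 in microglia (-0.01) and -1.79 in VSMCs (0.10). The 4 classes with the most calls did not hold the same families.

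In endothelial cells all 4 IFIT genes, all 7 GTPases and both membrane-associated members (Ifitm3, which blocks virus entry, and Bst2, which tethers virus particles) were called higher, along with 3 of 5 regulators, 3 of 5 other antiviral effectors, 2 of 5 OAS genes and 1 of 3 sensors. Of these, the calls of Bst2, Ifi47 and Irf7 did not hold in every fit that left out a single library. Ifi44, an interferon-induced protein of the cytoplasm, stood out: its level was 62.1, 54.7, 24.3 and 42.3 CPM in cortical surface endothelial cells and 91.7 and 74.7 in bone-associated ones. All 6 libraries lay above the mean level of Ifi44 in the next classes, NK cells on the cortical surface (4.0) and monocytes in the bone-associated data (14.4), and the log2 difference from the other classes was 5.78 ± 0.32 (SE, edgeR, adjusted p = 8.3e-23). Iigp1, a GTPase that acts on pathogen vacuoles, was at 145, 149, 189 and 157 in cortical surface endothelial cells and at 567 and 428 in bone-associated ones, with a log2 difference of 5.76 ± 0.33. Bone-associated pericytes, with a mean of 375, overlapped the bone-associated endothelial cells. Ifit1 was even across libraries, at 134, 140, 116 and 135 and then 140 and 104, against 0 to 3.39 in microglia. Isg15, a ubiquitin-like modifier, was at 212, 251, 313 and 262 and then 226 and 254. Rsad2 (viperin), which blocks virus replication, was at 108, 109, 170 and 96.7 on the cortical surface and at 250 and 230 in the bone-associated libraries, so those groups did not overlap. The clusters of the class did overlap. Pooled over libraries, Rsad2 was at 417, 157 and 7.29 in bone-associated clusters 2, 10 and 18 (leading genes given below). It was at 34.6, 206 and 51.5 in cortical surface clusters 7, 9 and 22. The other members among the 8 with the highest fold were Ifit3b (3.64), Ifitm3 (3.33), Phf11d (3.14) and Gbp3 (2.94). Stat2 (1.21) and the RNA sensor Ddx58 (1.10) did not reach the fold limit. Oas3 had no UMI in cortical surface endothelial cells.

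In border macrophages all 4 IFIT genes and all 5 OAS genes were called higher, with 3 of 7 GTPases and 1 of 5 regulators. Of these, the calls of Ifit1, Oas3 and Ifi47 did not hold in every fit that left out a single library. Oas2 had the highest fold, with 42.7, 37.1, 23.6 and 25.5 CPM in cortical surface border macrophages and 78.8 and 62.2 in the bone-associated class, and a log2 difference of 4.93 ± 0.32 (edgeR, adjusted p = 1.5e-19). Bst2 reached 702, 901, 791 and 834 on the cortical surface and 508 and 727 in the bone-associated class (log2 difference 2.61 ± 0.18). Microglia had 105, 145, 158 and 159 of Bst2 in the same cortical surface libraries, so the ranges were far apart. Iigp1 (3.82), Oasl1 (3.40), Phf11d (3.04), Ifit3b (3.03), Ifi27l2a (2.70) and Oas1a (2.54) completed the leading 8.

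In monocytes all 5 OAS genes and all 5 other antiviral effectors were called higher but only 1 of 7 GTPases. Ifi27l2a, an interferon-induced membrane protein, was at 3533 and 1875 CPM in monocytes of cortical surface libraries 3 and 4 and at 2568 and 3519 in the bone-associated libraries, and its log2 difference was 4.73 ± 0.29 (edgeR, adjusted p = 1.4e-21). Ifitm3 was at 3788 and 3441 and then 4511 and 5527, above the 2132 to 2430 of endothelial cells. T cells had 2.75 to 33.5 of Ifitm3. The other leading members were Oas3 (4.69), Oas2 (4.32), Oas1a (4.14), Mx1 (3.92), the nucleic acid sensor Zbp1 (3.54) and Oasl1 (3.36). Irf7, the transcription factor that amplifies type I interferon production, was at 114 and 117 in cortical surface monocytes and at 239 and 387 in bone-associated ones, so the preparations did not overlap in the 4 libraries with enough monocytes. The cortical surface values came only from the hemoglobin-rich libraries 3 and 4.

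Neutrophils had all 5 OAS genes and 4 of 5 other antiviral effectors called higher and none of the 7 GTPases. Among these OAS genes, the call of Oas1a did not hold in every fit that left out a single library. Oas3 was at 39.2 and 35.7 CPM in neutrophils of cortical surface libraries 3 and 4 and at 140 and 188 in the bone-associated libraries, with a log2 difference from the other classes of 5.86 ± 0.33 (edgeR, adjusted p = 3.4e-22). Isg15 was at 11.2 and 32.7 in the cortical surface neutrophils and at 456 and 711 in the bone-associated ones. Rsad2 was at 56.0 and 23.8 and then 360 and 410. Each contrast took both preparations together, so a call does not show that a member was high in both. Iigp1 had no UMI in neutrophils of any library with enough of them, and Bst2 was at 8.77 to 23.8. The other leading genes were Oas2 (5.10), Oasl1 (4.63), Rsad2 (4.12), Oasl2 (3.96), Ifi27l2a (2.91), Cmpk2 (2.90) and Rtp4 (2.80).

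In dendritic cells Mx1 (3.09 ± 0.44), Ifitm3 (2.75 ± 0.16), Ifi27l2a (2.62 ± 0.28) and Oas3 (2.51 ± 0.33) led the 11 members called. In stromal and lymphoid classes few members were called. Pericytes had all 4 IFIT genes together with Iigp1 (log2 difference 4.69 ± 0.38), Ifitm3 (3.28 ± 0.16) and Phf11d (2.94 ± 0.30), and mesenchymal cells had Iigp1 (2.56 ± 0.50), Ifitm3 (2.30 ± 0.17), Ifit3b (2.29), Ifit3 (2.25) and Ifit1 (1.74). Iigp1 in pericytes was at 89.5, 37.4, 81.9 and 40.0 CPM on the cortical surface and at 439 and 310 in the bone-associated libraries. T cells had Ifi47, Zbp1, Ifi27l2a, Oas3, Iigp1, Igtp and Mx1. Ifi47, a GTPase induced by interferon gamma, was at 184, 126, 129 and 148 in cortical surface T cells and 143 and 81.8 in bone-associated ones, and at 0 to 0.911 in microglia. NK cells had Ifi47 (2.45 ± 0.32) and Zbp1 (1.65 ± 0.36), B cells had Ifi27l2a (3.48 ± 0.27), Oasl1 (2.03 ± 0.52) and Mx1 (1.54 ± 0.60), and type 2 innate lymphoid cells had only Oas3, a call that DESeq2 did not make. Phf11d was the only member called higher in microglia (2.63 ± 0.35) and in VSMCs (1.56 ± 0.35), the latter not by DESeq2. Some calls did not hold in every fit that left out a single library. These included Ifit2 in pericytes, Ifit1 in mesenchymal cells, Iigp1 and Mx1 in T cells and Mx1 in B cells.

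The classes were also ordered by the mean level of each gene. Among the 17 cortical surface classes with a library of at least 10 cells, 19 of 37 members had their highest mean in endothelial cells, 9 in monocytes, 4 in border macrophages, 2 in erythroid cells and 1 each in NK cells, T cells and neutrophils. Among the 15 bone-associated classes the top place went to endothelial cells for 11 members, to monocytes for 7, to neutrophils for 7, to border macrophages for 6, and to Schwann cells and pericytes for 3 each. Most endothelial first places overlapped the next class in single libraries. Those without overlap were Gbp3, Iigp1, Irgm1, Ifi44 and Xaf1 on the cortical surface and Cmpk2, Gbp3, Gbp7 and Ifi44 in the bone-associated data. The same order was not computed over all genes, so these counts are descriptions. A few abundant genes dominated the sum over all members: Ifitm3 alone made up 43.0% of the members' UMIs in cortical surface endothelial cells and 43.4% in cortical surface monocytes, while Bst2 led with 21.4% in border macrophages and 17.9% in microglia.

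**Figure D2:**
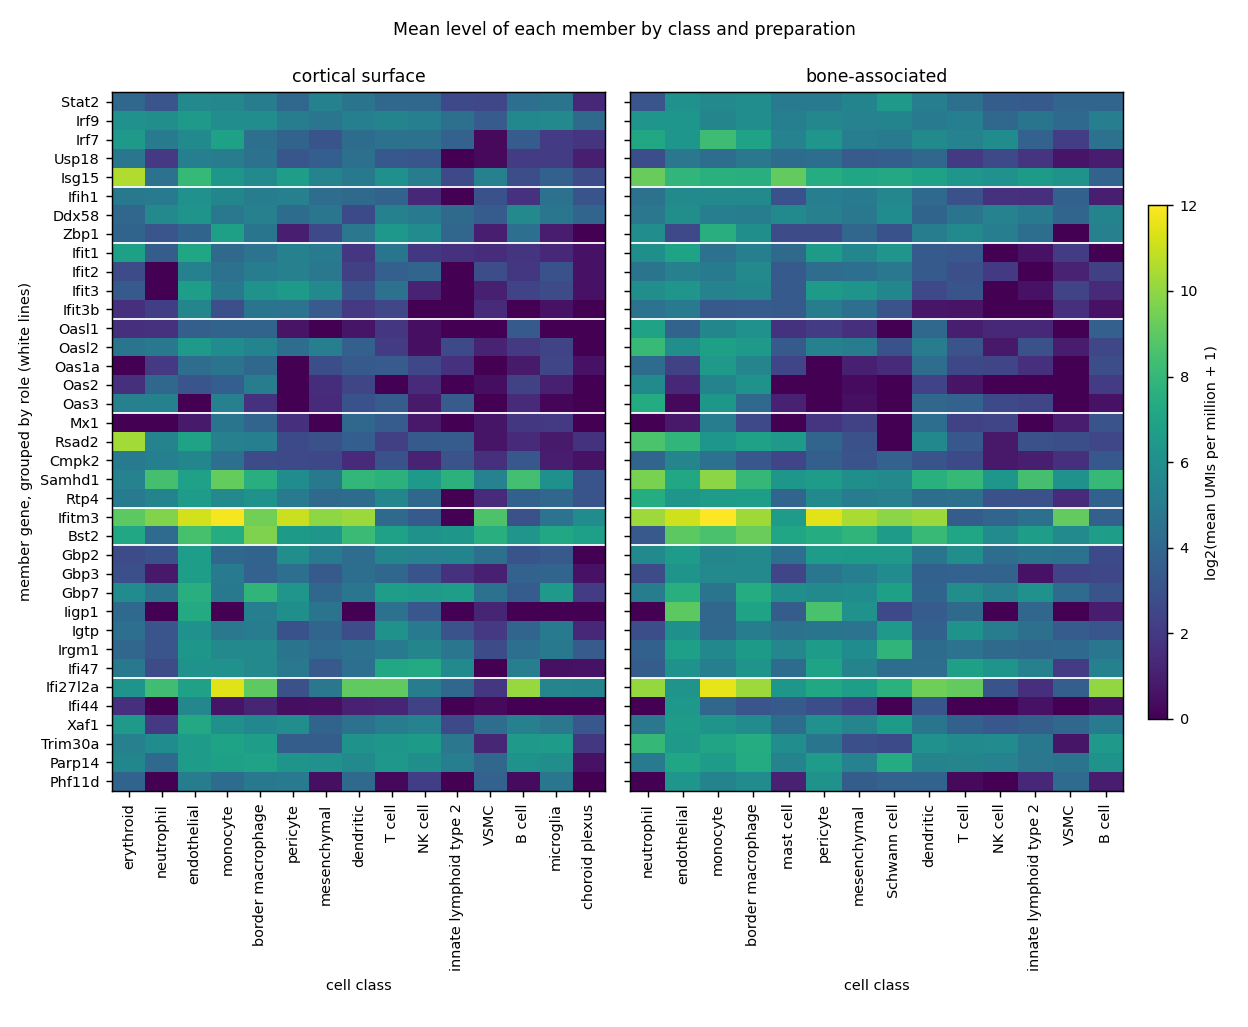
Mean level of each of the 37 members (rows, grouped by role between white lines) in each cell class (columns) for the cortical surface (left) and bone-associated (right) preparations, on a log2(mean CPM + 1) colour scale. Endothelial columns are bright for the IFIT genes and the GTPases and dark for Oas3 and Mx1, monocyte and neutrophil columns are bright for the OAS genes and dark for Iigp1, and the microglia column is dark for most core genes.

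Next, members were compared between the bone-associated and cortical surface libraries within each class that had enough cells in both, with 2 libraries against 4 and the same test and thresholds. Preparation and dissection cannot be told apart here, and a class held different clusters in each preparation. In endothelial cells (cortical surface clusters with Slc38a5, Mfsd2a or Gja5 among their leading genes, bone-associated clusters with Gpihbp1, Slc38a5 or Selp) 2 of 34 members tested were higher in bone-associated cells, where 4.34% of all genes were, and 1 was lower (2.61%). At an unadjusted p under 0.05, 9 were higher and 2 lower. Iigp1 rose by 1.72 ± 0.20 on the log2 scale (edgeR, adjusted p = 1.8e-05), from 145 to 189 CPM in the cortical surface libraries to 567 and 428, without overlap. Phf11d rose by 1.36 ± 0.23 (adjusted p = 0.00057), and Oas1a fell by 2.23 ± 0.48 (adjusted p = 0.0041), from 17.5, 29.8, 18.3 and 9.67 to 5.35 and 3.10. The call of Phf11d was lost without bone-associated library 2 or either of cortical surface libraries 3 and 4, and that of Oas1a without bone-associated library 2. Rsad2 had a log2 difference of 1.10 (adjusted p = 0.0018), under the fold limit. The median over the members was 0.02 against -0.02 for all genes. The other listed pathway genes included Cxcl10, a chemokine that attracts T cells (4.13 ± 0.35), the transcription factors Irf8 (2.99) and Irf1 (2.38), and the feedback inhibitors Socs3 (3.13) and Socs1 (2.19), all higher in bone-associated cells. Of the signalling genes 4 of 12 were called higher and of other interferon-induced genes 5 of 44. Of 10 immediate-early genes, which dissociation is known to raise, 4 were higher in the bone-associated cells too (median 1.56); their part in these differences was not tested.

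In mesenchymal cells, leptomeningeal on the cortical surface and dural in the bone-associated tissue, 10 of 24 members tested were higher in bone-associated cells (8.61% of all genes) and 0 were lower (6.42%), with 13 higher and 0 lower at an unadjusted p under 0.05 and 9 and 0 by DESeq2. The GTPases made up 6 of the 10: Ifi47 (3.07 ± 0.61), Iigp1 (2.33 ± 0.45), Gbp3 (1.75), Gbp7 (1.73), Gbp2 (1.53) and Irgm1 (1.52). Ifi27l2a (2.28), Xaf1 (1.99), Isg15 (1.60) and Bst2 (1.52) were the others. The calls of Ifi47 and Irgm1 did not hold in every fit that left out a single library. Isg15 was at 72.4, 37.6, 32.2 and 21.4 CPM in the cortical surface libraries and at 119 and 155 in the bone-associated ones, and Gbp2 at 32.9, 35.4, 19.3 and 32.1 and then 87.0 and 95; neither pair of groups overlapped. None of the 4 IFIT genes was called. The median over the members was 1.22 against 0.02 for all genes. A member can pass the filter on low counts only through the bone-associated libraries, so the count and median describe the tested members alone. Immediate-early genes moved the same way in 9 of 10 cases (median 2.98), and the pericyte markers summed to 4598 to 8372 CPM in the cortical surface class against 251 and 376 in the bone-associated one; the part of either was not tested. Among pathway genes the chemokine Cxcl9 (7.99), Slfn5 (4.63) and Irf1 (2.22) were higher, and Ifitm1 was lower (-2.89).

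In border macrophages 9 of 35 members tested were higher in the bone-associated class (4.57% of all genes) and 0 were lower (1.47%), with 22 higher and 0 lower at an unadjusted p under 0.05 and 10 and 0 by DESeq2. The study describes macrophages of the dura as transcriptionally distinct from border macrophages, and the naming here did not separate them. Irf7 had the highest fold (2.54 ± 0.35, edgeR, adjusted p = 0.0018), with 19.9, 36.0, 13.5 and 14.2 CPM on the cortical surface and 127 and 113 in the bone-associated libraries. Isg15 was at 46.0, 81.1, 38.8 and 36.8 and then 91.9 and 272 (2.10 ± 0.42). Neither gene overlapped between the preparations. The other genes called were Oasl1 (2.40), Gbp2 (2.13), Gbp3 (2.00), Iigp1 (1.91), Zbp1 (1.70), Oas1a (1.63) and Ifi27l2a (1.40), and Rsad2 had 1.78 with an adjusted p of 0.058. This count rested on single libraries: it was 0 without bone-associated library 2, which leaves the 16 cells of library 1, and 14 without cortical surface library 2. It was 17 when only cortical surface libraries 3 and 4 were compared with the bone-associated ones. A member can pass the filter on low counts only through the bone-associated libraries, so each count describes the tested members alone. Monocyte markers were at 285 and 101 CPM in the bone-associated class against 3.3 to 34.0 on the cortical surface, and their part in the differences was not tested. Cxcl9 (4.51), the checkpoint ligand Cd274 (3.78) and Cxcl10 (3.34) were also higher, as were 4 of 9 MHC class I genes.

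In T cells 0 of 25 members tested were called higher (6.03% of all genes) and 0 lower (1.38%), with 1 higher and 5 lower at an unadjusted p under 0.05. In B cells 0 of 14 members were called higher (2.49%) and 0 lower (0.951%), with 0 higher and 1 lower (Gbp3) at an unadjusted p under 0.05. DESeq2 made 0 calls in either class.

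**Figure D3:**
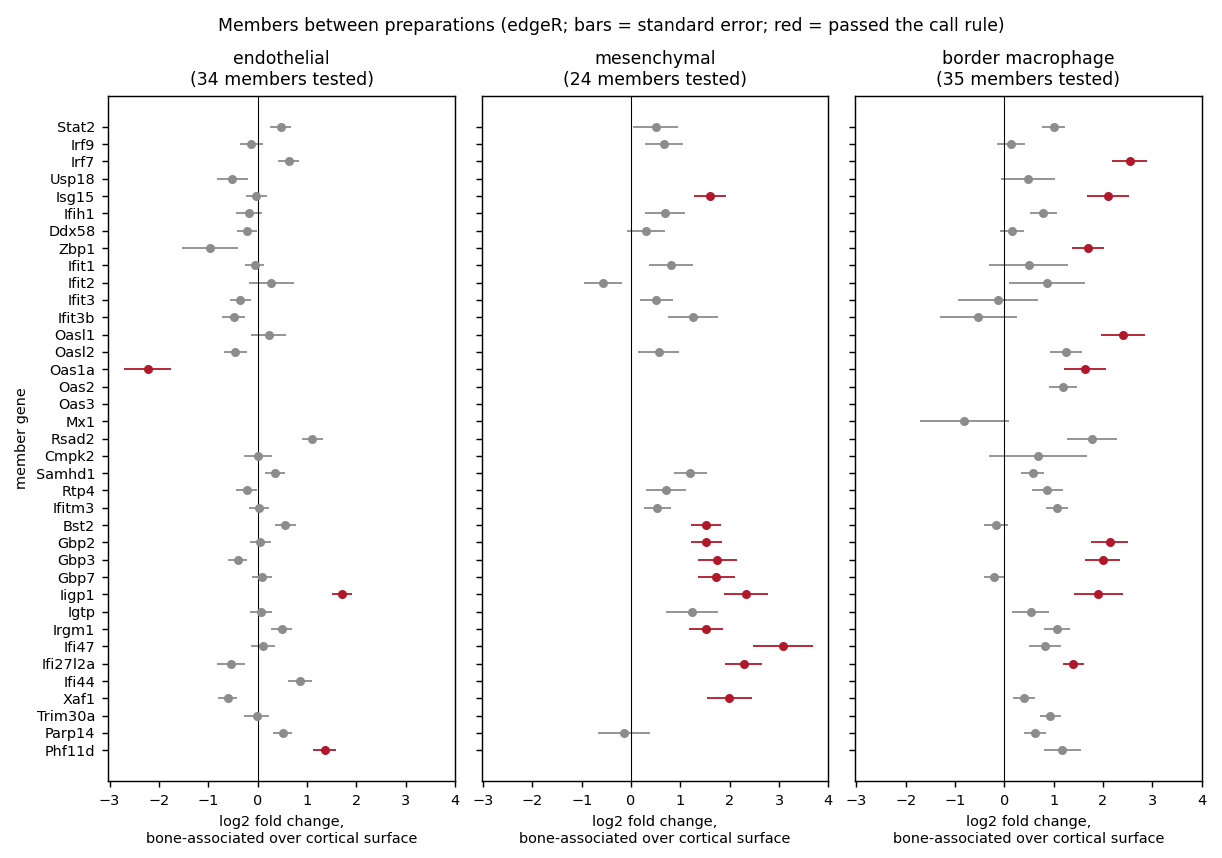
Log2 fold change of each member between bone-associated and cortical surface libraries (points; horizontal bars are standard errors from edgeR) in endothelial cells, mesenchymal cells and border macrophages, with members that passed the call rule in red and members not tested left blank. Endothelial members lie on both sides of 0, with Iigp1, Phf11d and Oas1a passing the call rule, whereas most mesenchymal and border macrophage members lie to the right of 0.

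Border macrophages and microglia are both tissue-resident macrophages of the brain, and both were present in the same 4 cortical surface libraries, so they were compared within libraries. Of 33 members tested, 21 were higher in border macrophages (9.77% of all genes) and 0 were lower (7.8%), with a median log2 difference of 2.12 against 0.01 for all genes. Members that passed the filter on low counts only through the class where they were high are among these, so the count describes the tested members alone. All 4 IFIT genes, all 3 OAS genes tested, all 4 other antiviral effectors tested and both membrane-associated genes were called, but only 3 of 7 GTPases and 1 of 3 sensors. Iigp1 had 281 UMIs in border macrophages and 0 in microglia, at least 68.1-fold higher in CPM, and Oasl1, which was under the filter, had 103 and 0, at least 25.0-fold higher. Ifi47 had 363 UMIs against 3, Oas2 236 against 2 and Ifit3b 198 against 2. Ifitm3 was 30.7-fold higher (4689 against 111 UMIs, log2 difference 5.04 ± 0.17), Rsad2 28.4-fold (4.47 ± 0.49), Ifit1 22.1-fold (3.99 ± 0.55) and Bst2 5.32-fold (2.69 ± 0.11). Other members were closer in the 2 cell types: Irf9 had a ratio of 1.22, Ifih1 1.25, Ddx58 1.27, Igtp 1.04 and Gbp3 0.832, none of them called. Among pathway genes, Ifi203 (7.88), Ifi204 (4.86), Ifi211 (9.70) and Mndal (8.39), DNA-binding proteins of the Ifi200 family, were higher in border macrophages, as 14 of 41 other interferon-induced genes were. The endosomal RNA sensor Tlr3 (-2.85) and the cytosolic DNA sensing pair Mb21d1 (cGAS, -1.95) and Tmem173 (STING, -1.88) were lower in border macrophages and so higher in microglia. None of 5 receptor genes, 12 signalling genes and 8 MHC class I genes was called. Of the immediate-early genes 4 of 10 were higher in border macrophages, and their part was not tested.

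A mean can arise from all cells of a class or from a few, and the share of cells with a strong response was counted as a description. This share rises with the mean of a class even where all its cells are alike. It therefore cannot by itself tell these cases apart. Each cell was thinned to 1500 UMIs, cells with fewer were left out, and a cell with a UMI in at least 3 of the 13 core entries was counted as strong. Of 8444 cells scored, 308 (3.65%, 95% exact binomial interval 3.26 to 4.07) were strong, 149 of them from the cortical surface and 159 bone-associated. Most cells had none: 6391 had 0 core entries, 1374 had 1, 371 had 2, 155 had 3, 65 had 4, 42 had 5 and 46 had 6 or more, with a maximum of 10. The intervals cover counting error only, and no test was made over cells. Where no cell was strong, the share that a count of 0 allows is given as 3 cells of the total.

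Endothelial cells made up 38.9% of the strong cells of the cortical surface and 39.6% of the bone-associated ones. On the cortical surface 58 of 516 endothelial cells were strong (11.2%, 8.65 to 14.3), 15 of 66, 22 of 185, 5 of 74 and 16 of 191 in libraries 1 to 4. In the bone-associated libraries 63 of 445 were strong (14.2%, 11.1 to 17.7), 21 of 122 and 42 of 323. Every endothelial library thus held strong cells. Without thinning, and with at least 5 entries needed, the shares were 20.0% and 25.6%. NK cells, with a median of 5792 UMIs on the cortical surface and 5789 in the bone-associated libraries against 5077 and 7472 in endothelial cells, had 0 of 186 on the cortical surface, which allows up to 1.61%, and 0 of 131 in the bone-associated libraries, which allows up to 2.29%.

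Border macrophages had 24 of 645 strong cells on the cortical surface (3.72%, 2.40 to 5.49), 16 of which were in library 2, and 15 of 112 in the bone-associated libraries (13.4%, 7.69 to 21.1), where library 1 had 0 of 15 and library 2 had 15 of 97. Neutrophils had 3 of 104 (2.88%, 0.599 to 8.20) against 15 of 75 (20.0%, 11.6 to 30.8), with 3 of 18 and 12 of 57 in the bone-associated libraries. Monocytes had 5 of 99 (5.05%, 1.66 to 11.4) and 17 of 163 (10.4%, 6.19 to 16.2). Microglia had 2 of 698 (0.287%, 0.0347 to 1.03), below each of these. Of the cortical surface neutrophils scored, 26 and 70 were from libraries 3 and 4, and of the monocytes 29 and 62. In these 2 classes preparation cannot be told apart from the high hemoglobin of those libraries. Mesenchymal cells had 1 of 249 (0.402%) and 11 of 279 (3.94%, 1.98 to 6.94), and pericytes 9 of 484 (1.86%) and 4 of 130 (3.08%). VSMCs of the cortical surface had 0 of 258, which allows up to 1.16%, and bone-associated Schwann cells 0 of 81, which allows up to 3.70%.

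**Figure D4:**
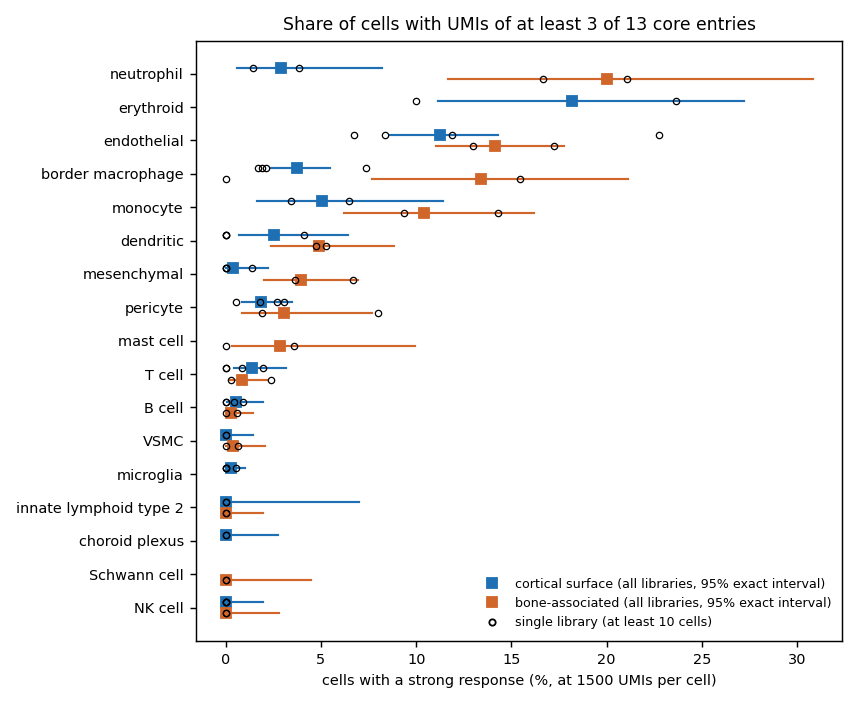
Share of cells with a strong response (percent of cells thinned to 1500 UMIs with at least 3 of 13 core entries) by class and preparation, with 95% exact binomial intervals that cover counting error only. Endothelial cells stand at 11.2% and 14.2%, bone-associated neutrophils at 20.0%, and microglia at 0.287%.

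The strong cells were not spread evenly over the endothelial clusters. In the bone-associated data, 37 of 228 cells in the cluster with Gpihbp1 among its leading genes (cluster 2) and 23 of 127 in that with Slc38a5 (cluster 10) were strong, but 3 of 90 in that with Selp (cluster 18). On the cortical surface, 34 of 224 cells in the cluster with the capillary lipid transporter Mfsd2a (cluster 9) were strong, against 16 of 219 in cluster 7 and 8 of 73 in the arterial cluster 22. These are counts per cluster pooled over libraries and were not tested.

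To describe the base level, strong cells were then left out. Core UMIs chose these cells, so a lower core level without them and their large share of core UMIs follow from the cut. The core level of all endothelial cells scored was 973 CPM on the cortical surface and 1030 in the bone-associated libraries, and it was 596 and 642 in the cells below 3 entries. The strong cells thus held 46.1% of the core UMIs in each preparation, with 11.9% and 13.5% of all UMIs of the class. Of the UMIs of the 23 members outside the core they held 19.5% and 23.1%. In bone-associated neutrophils the level dropped from 1912 to 742 once strong cells were left out, and they held 66.7% of the core UMIs. Microglia were low with all cells (50.1) and without the strong ones (35.9).

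The genes that made a cell strong differed between classes. In endothelial cells Isg15 had a UMI in 73.6% of strong and 16.1% of other cells, Ifit1 in 56.2% and 7.26%, Rsad2 in 49.6% and 12.1%, and Irf7 in 33.9% and 4.64%. In border macrophages Ifit3 came first (66.7% and 3.48%), followed by Isg15 (61.5% and 5.57%) and Irf7 (51.3% and 3.48%). Irf7 led in monocytes (86.4% and 17.9%), where Ifit2, at 50% and 0%, was seen only in strong cells. Neutrophils had Isg15 (83.3% and 13%), Oasl2 (83.3% and 11.2%), Rsad2 (77.8% and 6.21%) and Oasl1 (61.1% and 2.48%), but no UMI of Usp18 in either set of thinned cells. Since the core genes chose the cells, these shares describe the set and were not tested.

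Erythroid cells, found only in the cortical surface libraries, had 18 of 99 strong cells (18.2%, 11.1 to 27.2), but of another make-up. They lay unevenly over 2 clusters, with 14 of 40 cells strong in cluster 30 and 4 of 59 in cluster 25. Isg15 was at 3363 and 188 CPM and Rsad2 at 2759 and 271 in these clusters, which were not tested against each other. Isg15 (94.4% of strong and 35.8% of other cells) and Rsad2 (94.4% and 45.7%) were the most frequent, followed by Irf7 (44.4% and 0%), Ifit1 (33.3% and 2.47%), Usp18 (22.2% and 2.47%) and Cmpk2 (22.2% and 2.47%). Ifit3 was seen in 5.56% of strong erythroid cells, and Oasl1, Oas2, Mx1 and Ifi44 in none. With Isg15 and Rsad2 left out of the core, 1 of 99 erythroid cells was strong, while 36 of 516 and 29 of 445 endothelial cells and 9 of 75 bone-associated neutrophils were. The erythroid level depended on the denominator: Isg15 was at 1697 and 1380 CPM without hemoglobin and at 364 and 377 with it, and Rsad2 at 1257 and 1292 and then 270 and 353, since hemoglobin made up 78.6% and 72.6% of the UMIs of these cells. RNA from outside the cell was not separated from RNA within it, and its part in these levels was not tested.

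**Figure D5:**
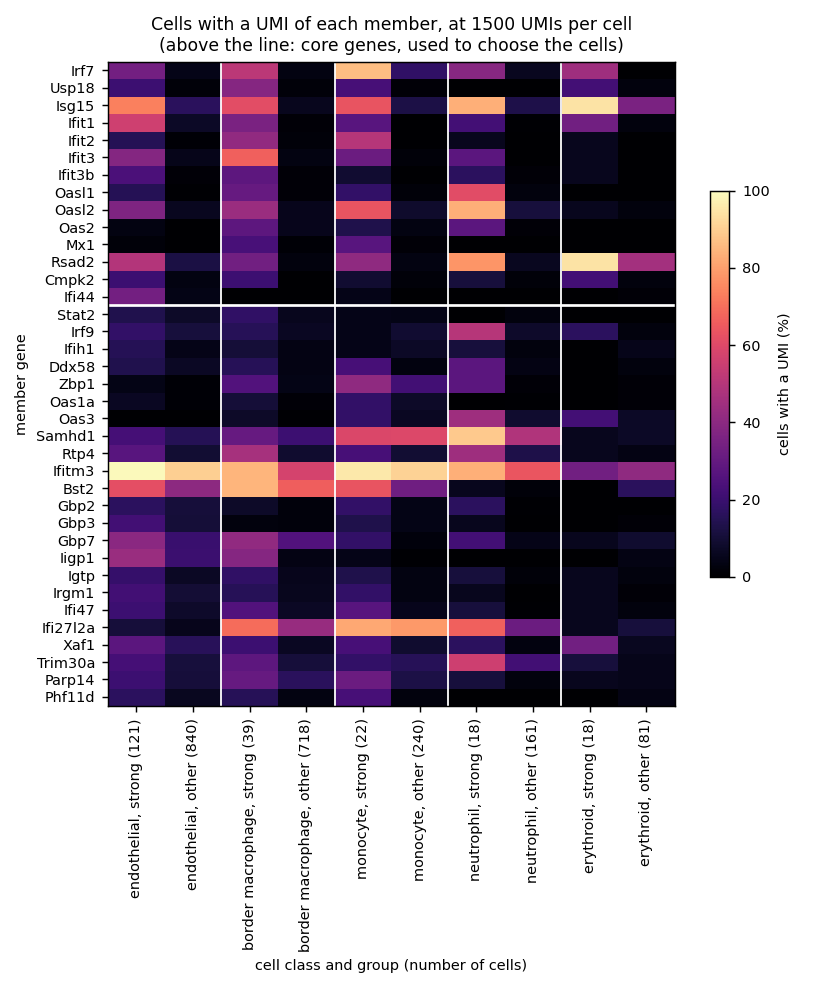
Share of cells with a UMI of each member (colour, percent, cells thinned to 1500 UMIs; core genes above the horizontal line) in strong-response cells and in the other cells of endothelial cells, border macrophages, monocytes, neutrophils and erythroid cells, both preparations pooled. Strong endothelial cells spread over many entries with Isg15 at 73.6%, whereas strong erythroid cells carry Isg15 and Rsad2 most often, both at 94.4%, followed by Irf7 at 44.4%.

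Because the core chose the strong cells, the members outside the core were used to ask whether the rest of the program moved with it. Strong and other endothelial cells were compared within each of the 6 libraries, over 6551 genes. Of 22 members outside the core that were tested, 8 were higher in strong cells, where 0.458% of all genes were, and 0 were lower (0.458%). These were the sensor Zbp1 (2.83 ± 0.51), Oas1a (1.84 ± 0.48, edgeR, adjusted p = 0.026), Igtp (1.58 ± 0.22), Rtp4 (1.58 ± 0.17), Ifi47 (1.56 ± 0.20), Iigp1 (1.46 ± 0.19), the RNA sensor Ifih1 (1.44 ± 0.22) and Gbp3 (1.39 ± 0.19). Rtp4, a chaperone induced by interferon, was at 55.5, 72.9, 80.9, 99.7, 69.4 and 66.5 CPM in other cells and at 174, 201, 205, 293, 444 and 255 in strong cells of bone-associated libraries 1 and 2 and cortical surface libraries 1 to 4, with no overlap. Iigp1 went from 471 and 371 to 1081 and 832 in the bone-associated libraries and from 102, 134, 106 and 137 to 371, 253, 1481 and 375 on the cortical surface, higher in strong cells in 6 of 6 libraries. In thinned cells Zbp1 had a UMI in 4.13% of strong and 0.833% of other cells, and Oas1a in 6.61% and 1.07%. A gene can pass the filter on low counts only through the strong cells, so the counts here describe the tested genes alone. Irgm1 (1.29), Trim30a (1.2), Phf11d (1.19) and Gbp7 (1.17) were under the fold limit. Stat2 had 0.78 (adjusted p = 0.055), Ddx58 0.67 (0.19) and Ifi27l2a 0.77 (0.33). The calls of Iigp1, Gbp3 and Oas1a did not hold in every fit that left out a single library. With cluster added to library as the block, 7 members were called; Gbp3 (1.28, under the fold limit) and Oas1a (1.76, adjusted p = 0.11) were then not among them. The count was 5 without cortical surface library 3, which had only 5 strong cells, and 3 without cortical surface libraries 3 and 4.

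Of the other pathway genes in strong endothelial cells, Eif2ak2 (PKR, 1.42), Cd274 (1.71), Ifi211 (2.47), Tgtp1 (1.47) and Trim30d (1.47) were the 5 of 41 other interferon-induced genes called. None of 5 receptor genes, 9 MHC class I genes or 10 immediate-early genes was called, and the immediate-early genes had a median of -0.53. Cxcl10, which differed between the preparations, was at 178 and 294 in other and strong cells of bone-associated library 1 and at 188 and 25.1 in those of library 2. Outside all lists 4 genes were called higher: Gm4070 (1.76 ± 0.30), Gm4951 (1.66 ± 0.34), Ddx60 (1.46 ± 0.35) and the lipid transporter Mfsd2a (1.34 ± 0.27). Mfsd2a is also a leading gene of the cortical surface cluster 9, which held 34 of the 58 strong cells there, and the part of cluster in its difference was not tested.

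Transcripts of the ligands were scarce apart from interferon gamma. Ifnb1 had 7 UMIs in all kept cells, of which 3 were in border macrophages, 2 in monocytes and 2 in dendritic cells of bone-associated library 2, Ifnz had 3, Ifnk had 1 and Ifne had 0. Ifng had 832 UMIs. Its level was 410, 238, 186 and 117 CPM in NK cells of the cortical surface and 49.5 and 200 in bone-associated NK cells, and 140, 143, 67.3 and 52.1 and then 121 and 83.5 in T cells. NK and T cells were thus its main holders in both preparations.

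The receptors were widely expressed. Ifnar1 was highest on the cortical surface in endothelial cells, at 193, 188, 152 and 151 CPM. Ifnar2 was at 500 and 516 in bone-associated mast cells, at 248, 276, 234 and 262 in cortical surface border macrophages and at 285, 268, 241 and 214 in microglia, where the last 2 classes overlapped. Ifngr1 was at 644 to 887 in microglia and at 1278 and 1308 in bone-associated NK cells. Of the upstream sensors, Tlr7, which detects single-stranded RNA, was at 137 to 162 in microglia, and Tmem173 was at 251, 337, 322 and 335 there. Irf1 reached 560 and 610 in bone-associated pericytes and 425 and 503 in bone-associated endothelial cells, and Cxcl10 reached 499 and 531 and then 196 and 168 in the same classes.

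Across 79 sums of a class in a library, the members most like the rest of the core, by Pearson's r of log2 levels, were Ifit1 (0.798), Oasl2 (0.758), Isg15 (0.754), Irf7 (0.717), Rsad2 (0.690) and Rtp4 (0.680). The least like it were Mx1 (0.102) and Ddx58 (0.228). Outside all lists the most alike genes were Thbd, which encodes the anticoagulant receptor thrombomodulin (0.665), Map2k3 (0.658), Arhgap23 (0.639), Tnfaip2 (0.624) and Adipor1 (0.619). The sums share libraries and classes, so these values are descriptions.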

How the data were processed

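Cells of 6 scRNA-seq libraries, 4 cortical surface-associated and 2 bone-associated, were analysed from the UMI counts that the authors deposited as gene by cell matrices. The submitters' processing notes name Cell Ranger 3 and mm10, while the matrix header gives 6.1.2. The labels describe a papain digest of another region, and the study's methods a collagenase and dispase digest. Barcodes under 500 genes or above 10% mitochondrial UMIs were dropped, and 124 doublets, found by simulation, were removed. Barcodes numbered 951 to 5602 and total UMIs 8408685 to 56169736 per library.

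Clusters (Leiden, resolution 1.5, 30 components of 2000 genes, each preparation apart) were made without members, pathway lists, hemoglobin and mitochondrial genes and named from marker lists. The choroid plexus and ependymal markers were treated as a pair, a choice made after seeing the data. Counts were summed per class and library (at least 10 cells) and tested with edgeR 4.0.16 (TMM, quasi-likelihood) in R 4.3.3, with DESeq2 1.42.0 as an alternative. The tests were also run on counts simulated from the fitted model, with known changes in well-counted genes only. Such a run does not check the calls on sparse members. Mice were pooled, so p-values measure the spread between libraries, and binomial intervals cover counting error only. Members and lists were chosen with earlier results of these data known. In each test at most 8 called members per direction, by fold, are named as leading genes. Outside the members, genes are named from the pathway lists, the 5 most like the core and at most 10 in strong cells. A result on a further pathway gene is not reported here.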

Additional observations from a re-analysis of the deposited data

Results flagged for a closer look

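Of 27 groups of 4 libraries examined for a library far from the others (chance marks about 1 in 20), 5 had one. In cortical surface library 2 the sum of all members in border macrophages was 4330 CPM and the share of strong border macrophages was 7.37%, both above the other 3 libraries. The share of strong cells stood apart in dendritic cells of cortical surface library 4 (4.12%). It also did in mesenchymal cells of library 1 (1.37%) and in microglia of library 4 (0.538%), which rested on 1 and 2 cells. In each of these classes the other 3 libraries were at 0, where the rule marks any share above 0. The rate of about 1 in 20 therefore does not apply to them.

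Strong cells also occurred in clusters that got no name and entered no comparison. The bone-associated arterial cluster, led by Gkn3 and Gja5, had 12 strong cells of 143, and a cortical surface cluster expressing MHC class II genes had 12 of 309.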

How the results depend on the processing

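No single member's call reversed: of 3702 recomputed calls, 3498 were kept and 204 lost. The setting that lost the highest number was leaving out bone-associated library 2 (41 of 236). Among these calls were core genes in strong endothelial cells, which those genes had chosen, so their being kept is no check. Calls of members lower in a class, which are not given above, were also among them. Of the recomputed counts and shares, 233 stayed like the reported value, 27 shares moved, 14 counts rose and 13 fell. Settings that left out a single library were not in this second tally, and their ranges are given below where they moved.

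Counts of members moved as follows. The 1 call in type 2 innate lymphoid cells was 0 with DESeq2, RLE size factors, all genes with a UMI, cells with at least 1000 genes, no doublet removal, libraries clustered singly or no cortical surface libraries 3 and 4 (0 to 1 leaving out single libraries). The 1 call in VSMCs was 0 with DESeq2. Between preparations, endothelial calls were 1 higher and 2 lower with cortical surface libraries 1 and 2 only, 0 lower with libraries 3 and 4 only and 2 lower with all genes (1 to 2 higher and 0 to 1 lower leaving out single libraries). Mesenchymal calls were 4 higher and 1 lower with libraries 3 and 4 only and 1 lower with all genes (0 to 1 lower leaving out single libraries). Border macrophage calls were 17 higher with libraries 3 and 4 only (0 to 14). T cell calls were 1 higher and 1 lower with libraries 3 and 4 only, 1 lower with libraries 1 and 2 only and 2 lower with all genes (0 to 1 higher, 0 to 3 lower). B cell calls were 1 lower with all genes or libraries 3 and 4 only (0 to 1). The 8 calls in strong endothelial cells were 7 with cluster and library as the block and 3 without cortical surface libraries 3 and 4 (5 to 9 leaving out single libraries).

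With the library number as a replicate block the counts were 1 higher and 1 lower in endothelial cells, 13 and 1 in mesenchymal cells, 8 and 2 in border macrophages, 0 and 1 in T cells and 0 and 0 in B cells. The labels do not say that same-numbered libraries are pairs, and only 2 numbers are shared. Deviations of same-numbered libraries correlated at 0.0458 to 0.145. With 2 bone-associated libraries the crossed values are the same with the sign turned, so these correlations cannot decide on pairing.

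The share of strong cells moved with its cut. With at least 2 entries, 3000 UMIs, or no thinning and at least 5 entries it was 22.3%, 26.2% and 20.0% in cortical surface and 27.9%, 24.9% and 25.6% in bone-associated endothelial cells, 8.22%, 7.64% and 8.61% in cortical surface and 30.4%, 26.9% and 37.7% in bone-associated border macrophages, 0.716%, 0.613% and 0.566% in microglia, and 22.7%, 17.4% and 24.2% in bone-associated monocytes. In bone-associated neutrophils it was 30.7% and 28.2% with the first 2 settings, 16.0% with another seed and 12% without Isg15 and Rsad2. With at least 4 entries it was 6.59% in cortical surface and 6.74% in bone-associated endothelial cells, 6.25% in bone-associated border macrophages, 13.3% in bone-associated neutrophils and 3.68% in bone-associated monocytes. Without Isg15 and Rsad2 bone-associated endothelial cells stood at 6.52%, and without cortical surface libraries 3 and 4 microglia at 0. Leaving out single libraries gave 13 to 17.2% in bone-associated endothelial cells, 0 to 15.5% in border macrophages, 16.7 to 21.1% in neutrophils and 9.38 to 14.3% in monocytes, and 0 to 0.362% in microglia. The causes were not tested.

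Leaving out cortical surface libraries 3 and 4, taking cluster with library as the block, and leaving Isg15 and Rsad2 out of the core were chosen after seeing the data. At 1500 UMIs per cell single genes are sparse, and a UMI of 0 is no absence. With 2 bone-associated libraries, a difference between preparations rests on few units, and dissection and tissue cannot be told apart. RNA outside cells was not removed.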
